A study of Mus musculus with 6 samples.

Results

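Forkhead genes encode transcription factors that share the forkhead DNA-binding domain, and their transcripts were followed here in mouse liver sinusoidal endothelial cells (LSECs) exposed to hydrostatic pressure (HP). The members were all gene symbols that begin with Fox, a family letter from a to s and a digit, which gave 46 of the 24421 symbols listed. Of these, 44 are forkhead factor genes and 2, Foxd2os and Foxl2os, are transcripts from the strand opposite a forkhead gene. Reads were found for 33 members, 13 had no read in any library, and 19 had enough counts for testing. Foxred1 and Foxred2, which are not forkhead genes, do not follow the naming rule and were left out.

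The HP group held 3 libraries of primary LSECs that spent 8 h under a pressure that cycled at 0.01 Hz, with 101 kPa absolute as its low and 135 kPa as its high point. The control group held 3 libraries of LSECs, and what was done with these cells over the 8 h is not given in the labels. Cells of both groups came from livers of genotype "wild", were depleted of hepatocytes by slow centrifugation and of dead cells and erythrocytes on a density gradient, were picked with CD146 beads, and spent a night on collagen I and 6 h without serum. Strain and age are not given, and 1 batch label covers all 6 libraries. Nothing in the labels ties the samples of a group to separate animals or cultures; p-values here therefore reflect the variation among these libraries alone, and that may be technical.

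Forkhead factors bind DNA mainly through a helix that sits in the major groove and reads a short core element, and they differ in the parts outside that domain. FOXO factors restrain growth and raise stress resistance. Growth factor signalling through PI3K and AKT phosphorylates them and moves them out of the nucleus, so much of their control acts on the protein, which mRNA levels do not show. FOXP factors act largely as repressors, FOXK factors respond to nutrients, FOXM1 drives genes of mitosis, and FOXC and FOXF factors are needed for the growth of blood and lymph vessels in the mouse embryo.

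The stretch of coding sequence for the DNA-reading helix is shown because the family shares it, so that it bears on whether reads of one member could be given to another. These are the 30 bases of 10 tested members from GENCODE M21 transcripts (GRCm38, coding strand), with capitals at the bases that differ from Foxo3.
Foxo3: tggaagaactccatccggcacaacctgtcc
Foxo4: tggaagaactccatccgTcacaacctgtcc
Foxk1: tggCagaactcTatccgAcacaacctCtcT
Foxk2: tggCagaaTtcAatTcgCcacaaTctCtcT
Foxj2: tggaagaaTtccatTcgAcacaacctTtcc
Foxj3: tggaagaaTtcTatAcgAcaTaaTctgtcA
Foxm1: tggaagaactcTatTcgTcacaacctTtcT
Foxn2: tggaagaaTtcTGtTcggcaTaaTctAtcc
Foxp4: tggaagaaTGccGtGcgCcacaacctCAGc
Foxc1: tggCagaacAGcatAcggcacaacctCtcG
Foxo4 differed from Foxo3 at 1 of these 30 bases, Foxj2 at 4, Foxk1 and Foxm1 at 5 each, Foxc1 at 6, Foxj3 and Foxn2 at 7 each, and Foxk2 and Foxp4 at 8 each. Over whole transcripts, the longest run identical between any 2 of the 18 tested factor genes was 38 bases, between Foxo1 and Foxo3, and the next was 35 bases, between Foxj3 and Foxn3. No pair of the 153 shared a run as long as the 101 bases of a read. Runs with mismatches and loci outside these 18 genes were not compared, so this does not settle whether reads were shared.

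Library totals lay between 12922959 and 18655749 deposited counts. HP replicate 3 correlated less well with the other HP libraries (0.9888 and 0.9913 across log CPM of genes) than they did with each other (0.9957), and it held the lowest HP value for 12 of the 19 tested members (63.2%, against 39.6% of all tested genes). The labelled cell type was checked with 12 LSEC markers, which were all measured: their summed level was 5030 to 6080 CPM in HP libraries and 6680 to 7100 CPM in control libraries, and 7 of them fell and 1, Mcam, the gene of the CD146 antigen itself, rose. Kupffer cell markers were about as abundant, with sums of 5360 to 5820 CPM in HP libraries and 5610 to 6170 CPM in control libraries, 2 of 10 higher and 2 lower. As background for both lists, 33.7% of all tested genes rose and 35.1% fell. In such bulk samples fewer cells of a type and less RNA per cell cannot be told apart, and each forkhead level is that of the mixed culture. Levels are CPM, counts divided by library sizes that were scaled with TMM factors to correct for composition, and fold changes are HP over control on the log2 scale with their standard error.

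Of the 19 tested members, 10 rose and 4 fell under pressure at an adjusted p of 0.05, while 5 did not pass. The pressure-exposed cells had more transcript of Foxm1 (4.85-fold), Foxj3 (2.76-fold) and Foxp1 (2.24-fold), and less of Foxo3, Foxo4 and the opposite-strand transcript Foxd2os. The scarce Foxq1 (3.19-fold higher) and Foxs1 reached the filter's level of 0.569 CPM in 3 libraries of only the group in which they were higher, so that they entered the test through that difference. The other 17 members reached it in all 6 libraries, and 9 of them rose and 3 fell (median log2 change 0.32). Of all 12892 genes tested, 68.8% were called, so that the members' share of 73.7% is near the background. Calls in the upward direction were made for 52.6% of the members and 33.7% of all genes, and in the downward direction for 21.1% of the members and 35.1% of all genes. A call with at least a doubling or halving was made for 5 members (26.3%, against 23.3% of all genes), Foxq1 and Foxs1 among them. Each share of members given here includes Foxq1 and Foxs1, which entered the test through their difference. The 3 HP values lay wholly above or wholly below the 3 control values for 14 members, or 73.7%, against 71.9% of all genes. The median log2 change was 0.32 over the tested members and -0.015 over all genes. Plain library totals in place of TMM factors put the median of all genes at -0.228 and the share of rises among all calls at 34.7%, and upper-quartile factors put them at -0.128 and 41.2%, against 49.0% with TMM factors. Of the members' calls, 9 rises and all 4 falls were made under each of 4 ways of scaling the libraries, and the rise of Foxk2 was not.

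**Figure D1:**
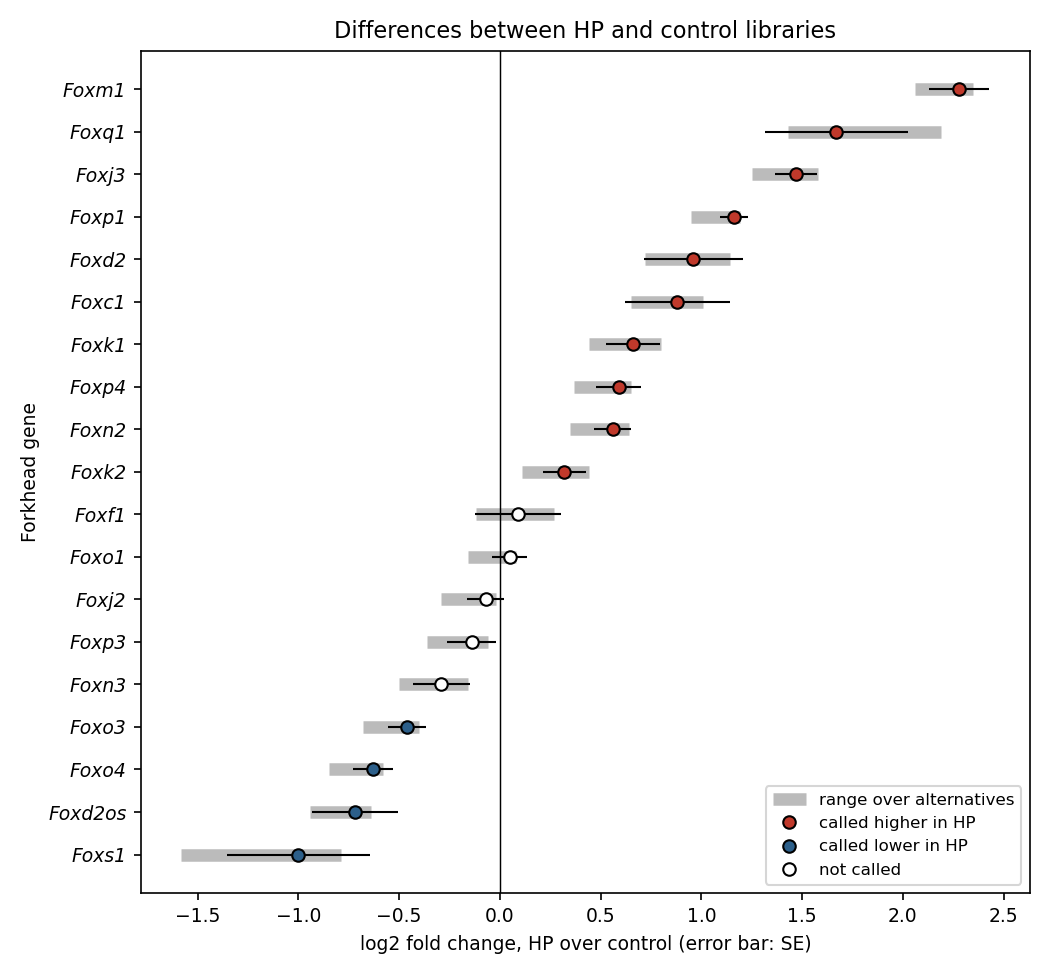
Log2 fold change (HP over control, horizontal axis) of each tested forkhead gene with its standard error; grey bars span the alternative settings, red is called higher, blue called lower and white not called. Foxm1 lies at 2.28 and Foxs1 at -1.0, and the grey bars of Foxo1 and Foxf1 cross 0.

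Per length, in TPM (deposited counts divided by GENCODE exonic length and scaled to the same total in each library, without a composition factor), Foxk2 was the most abundant member in both groups, with 63.0 ± 10.6 TPM in HP libraries and 58.7 ± 4.23 TPM in control libraries (SD, n = 3 each, as for the levels below). In HP libraries Foxj3 (59.0 ± 9.66 TPM) and Foxp1 (48.7 ± 2.12 TPM) came next. In these libraries Foxk2 ran from 51.3 to 72.0 TPM, Foxj3 from 48.3 to 67.3 TPM and Foxp1 from 46.3 to 50.3 TPM, so that the range of Foxj3 overlapped both others and that of Foxp1 lay below that of Foxk2. In control libraries Foxj2 (31.1 ± 2.60 TPM), Foxo4 (29.4 ± 2.26 TPM), Foxk1 (27.2 ± 2.40 TPM), Foxn2 (26.7 ± 2.23 TPM), Foxp1 (25.4 ± 0.728 TPM) and Foxj3 (24.8 ± 1.17 TPM) lay close together. Foxj3 thus made up 16.5% of the summed TPM of tested members in HP libraries and 8.28% in control libraries, while Foxo4 made up 4.57% in HP libraries and 9.77% in control libraries. Over all 6 libraries the lowest of the tested members were Foxc1 (1.59 ± 0.403 TPM in HP libraries, 1.00 ± 0.203 TPM in control libraries) and Foxq1, and in HP libraries Foxd2os (1.51 ± 0.150 TPM) lay between them.

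**Figure D2:**
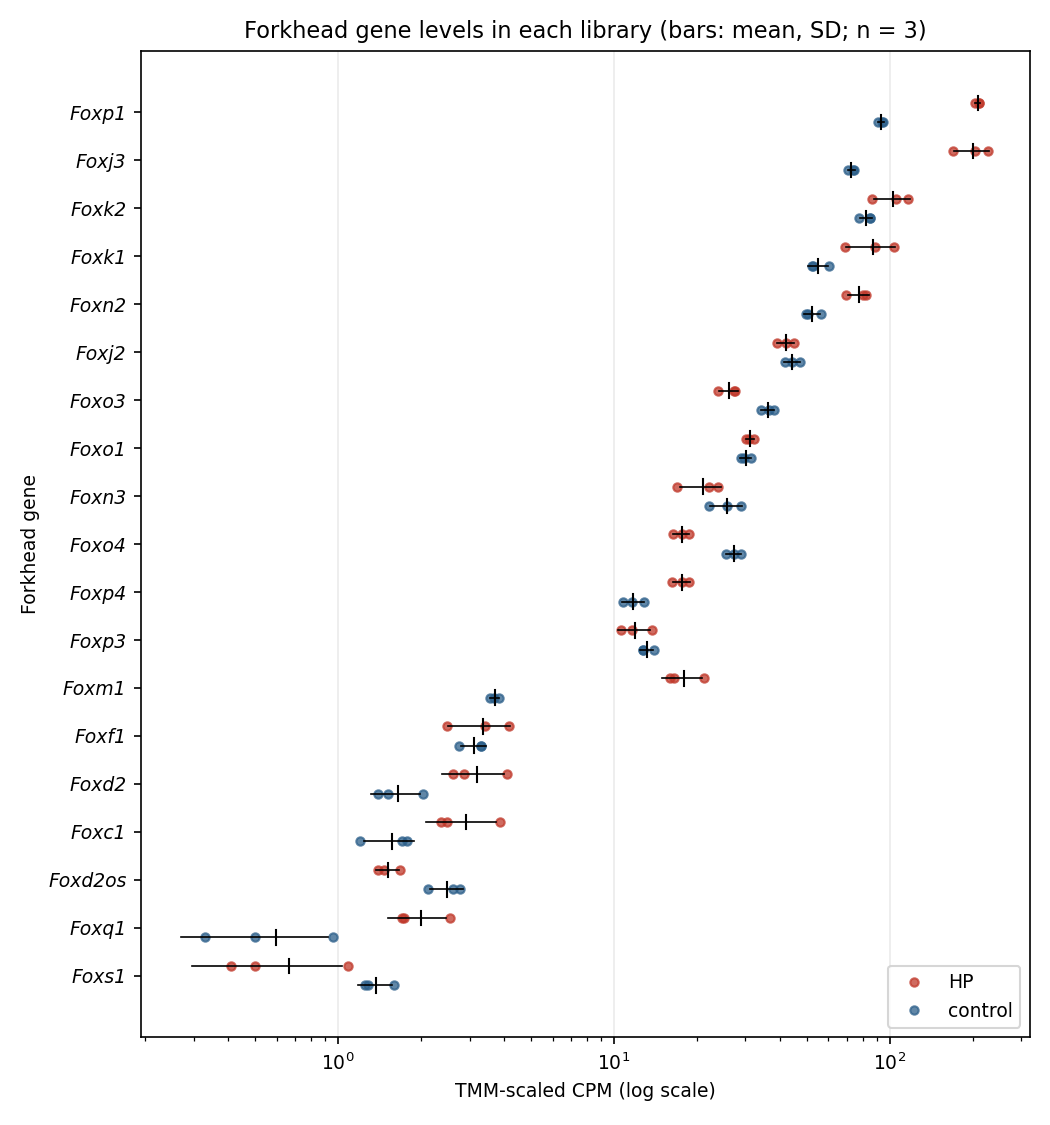
TMM-scaled CPM (log axis) of the 19 tested forkhead genes in each of the 3 HP (red) and 3 control (blue) libraries, with mean and SD as bars. The HP points of Foxm1 (16.0 to 21.3 CPM), Foxj3 and Foxp1 lie clear of the control points, while those of Foxo1, Foxj2, Foxf1, Foxn3 and Foxp3 overlap them.

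Among the FOXO genes, Foxo3 and Foxo4 fell, and Foxo1, which the mouse embryo needs to form its vessels, did not pass. Foxo3, a factor of stress resistance and cell death, had 27.5, 27.3 and 23.8 CPM in the HP libraries, against 38.0, 34.1 and 36.5 CPM in the control libraries (log2 change -0.46 ± 0.0957, adjusted p = 0.00140). Foxo4, a close relative on the X chromosome, had 18.8, 17.6 and 16.4 CPM in the HP libraries, against 29.0, 25.6 and 27.2 CPM in the control libraries (-0.63 ± 0.0998, adjusted p = 2.29e-04). For both genes the highest HP library stayed below the lowest control library. Foxo1 had 32.3, 30.8 and 30.2 CPM in the HP libraries, against 31.5, 29.0 and 29.6 CPM in the control libraries (0.05 ± 0.0865, adjusted p = 0.622). The groups of Foxo1 overlap, and the sign of its change turned under upper-quartile factors (-0.06) and under plain library totals (-0.16), passing in neither. In GRCm38, Foxo1 spans chromosome 3 from 52268336 to 52353221, Foxo3 chromosome 10 from 42181841 to 42276755 and Foxo4 chromosome X from 101254528 to 101260873, spans that hold exons, introns and untranslated regions. An antisense gene that the files do not list, Gm20402, covers 7.78% of the exonic bases of Foxo1.

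A ratio of 2 genes within a library does not depend on how libraries are scaled. The log2 ratio of Foxo1 to Foxo3 counts was 0.23, 0.17 and 0.34 in the HP libraries, against -0.27, -0.23 and -0.30 in the control libraries, so that Foxo1 had more counts than Foxo3 in each HP library and fewer in each control library. The difference of 0.52 had an exact two-sided permutation p of 0.1, the smallest that 3 against 3 can give (0.1 also when adjusted over the 6 pairs compared). The ratio of Foxo3 to Foxo4 differed less, by 0.17 (0.58 ± 0.0542 in HP libraries, 0.41 ± 0.0168 in control libraries, exact permutation p = 0.1). Per length, Foxo1 took 29.1% to 30.8% of the summed TPM of the 3 FOXO genes in HP libraries and 21.3% to 22.0% in control libraries, and Foxo4 took 41.3% to 42.3% in HP libraries and 48.4% to 49.0% in control libraries. Foxo6, the fourth FOXO gene, known mainly from the brain, had 11 reads over the HP libraries and 1 over the control libraries. At this depth its ratio of depth-scaled reads was 11.4, with a counting interval of 1.66 to 492.

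**Figure D3:**
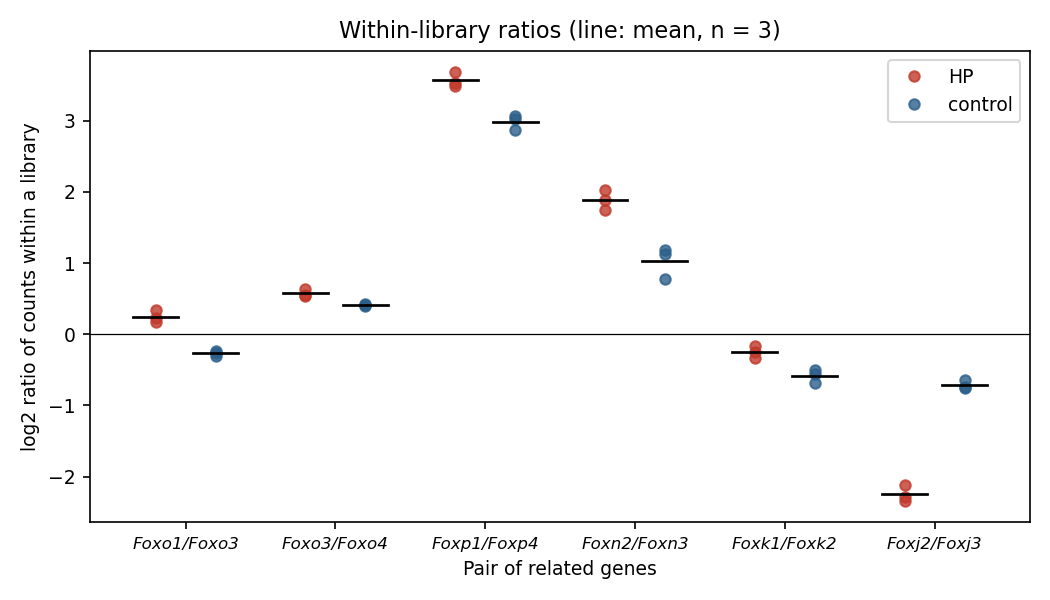
Log2 ratio of the counts of 2 related forkhead genes within each library (vertical axis), for 3 HP (red, left) and 3 control (blue, right) libraries per pair, with the mean as a line. The groups do not overlap for any of the 6 pairs, and the widest gap is that of Foxj2 to Foxj3, with means of -2.24 in HP libraries and -0.71 in control libraries. Other gene pairs were not compared, and as single genes 71.9% of all tested do not overlap between groups.

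Among 26 genes whose products act on FOXO proteins, 11 rose and 8 fell (median log2 change 0.16). As background for this and the lists below, 33.7% of all tested genes rose and 35.1% fell. Sirt1, a deacetylase of FOXO proteins, had 108 ± 9.95 CPM in HP libraries and 41.8 ± 3.63 CPM in control libraries (1.37 ± 0.0981, adjusted p = 1.02e-06). Sgk1, a kinase related to AKT that phosphorylates FOXO3, stood at 365 ± 44.2 CPM in HP libraries and 160 ± 9.08 CPM in control libraries (1.19 ± 0.0962). Mdm2, a ubiquitin ligase known for p53 that also acts on FOXO proteins, stood at 594 ± 134 CPM in HP libraries and 212 ± 14 CPM in control libraries (1.49 ± 0.142). The count of falls was 4, 5 and 3 without control replicate 1, 2 and 3 in turn, and 6 or 7 without an HP library. Under upper-quartile factors 10 rose and 11 fell, and under plain library totals 10 rose and 12 fell.

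Of 39 genes known as FOXO targets in various tissues, 33 were tested, 14 rose and 13 fell (median 0.12). The shares over all tested genes were 33.7% and 35.1%. S1pr1, a sphingosine-1-phosphate receptor of endothelium, had 1410 ± 125 CPM in HP libraries and 410 ± 19.4 CPM in control libraries (1.78 ± 0.0799, adjusted p = 7.86e-08). Cited2, a transcriptional cofactor, had 42.8 ± 5.29 CPM in HP libraries and 8.68 ± 0.165 CPM in control libraries (2.30 ± 0.116), and Angpt2, an antagonist of the receptor TIE2, rose as well (1.32 ± 0.0810). In the other direction Cat, the peroxide-degrading enzyme catalase, had 200 ± 12 CPM in HP libraries and 512 ± 18.0 CPM in control libraries (-1.35 ± 0.0725, adjusted p = 1.95e-07). Of the target genes, 11 rose and 15 fell under upper-quartile factors, and 10 rose and 15 fell under plain library totals.

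**Figure D4:**
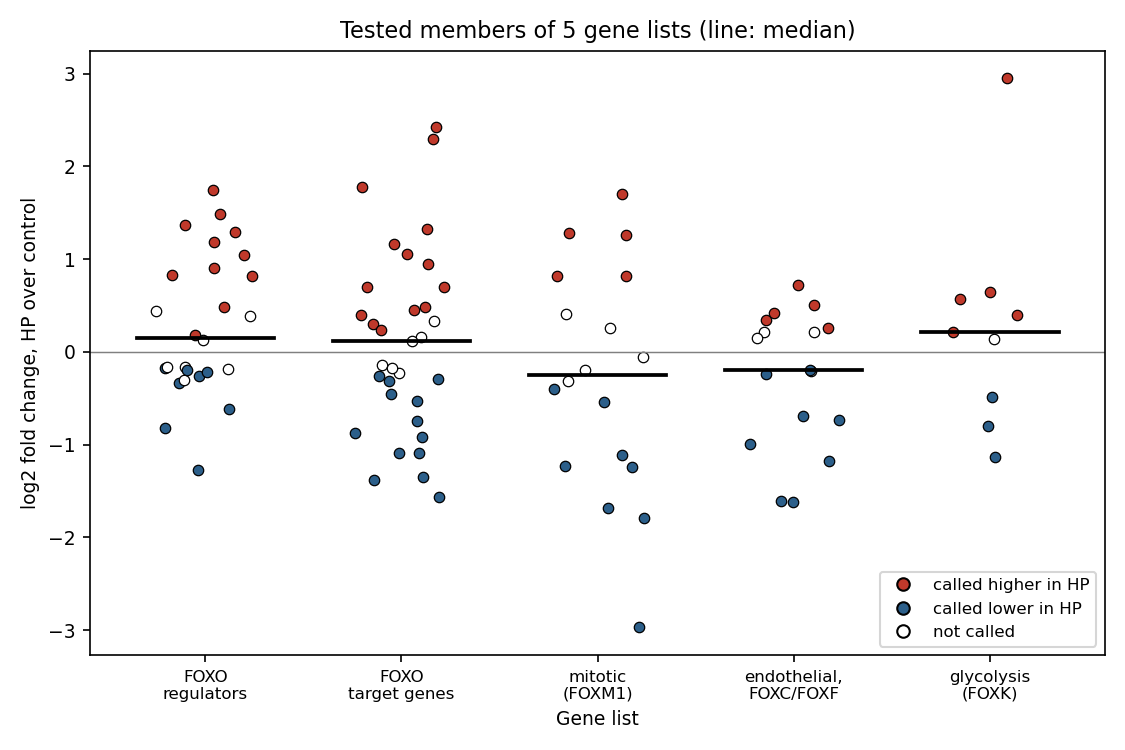
Log2 fold change (HP over control, vertical axis) of the tested members of 5 gene lists tied to forkhead factors, 1 point per gene (red called higher, blue called lower, white not called), with the median as a line. Each list holds points on both sides of 0, and the medians run from -0.25 (mitotic genes) to 0.22 (glycolysis genes).

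The core element read by forkhead factors, TGTTTAC on either strand, was looked for in the 250 bases before the start sites of genes in RefSeq (GRCm38.p6). It was found in 6 of 43 such regions of FOXO target genes and in 3.17% of all 32851 regions, and the related TATTTAC in none of the 43 and in 2.73% of all. Genes may have become known as FOXO targets through such elements, so these shares are not an independent comparison. None of the 14 regions matched to 11 tested forkhead members held either. One of the 6 belonged to Trim63, which had no read. The sites of the other 5 targets are shown because their genes moved in different directions; each is printed in the direction of its gene, with the element in capitals.
Txnip, chr3:96557826-96557852, plus strand: tggaggcctgGTAAACAagggccaagt
Mxi1, chr19:53329454-53329480, plus strand: gcgcggagaaGTAAACAaaccgcgcgc
Hbp1, chr12:31950378-31950404, minus strand: accttctccaGTAAACAcaagagaaaa
Bcl2l11, chr2:128125801-128125827, plus strand: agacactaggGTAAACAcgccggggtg
Bbc3, chr7:16310084-16310110, plus strand: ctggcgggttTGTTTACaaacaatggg
Of these genes Txnip, an inhibitor of thioredoxin, and Mxi1, an antagonist of MYC, fell (-1.09 ± 0.135 and -0.74 ± 0.0882), and the repressor Hbp1 and the cell death genes Bcl2l11 and Bbc3 rose (0.40 ± 0.113, 0.30 ± 0.0816 and 0.45 ± 0.134). These 5 genes were named after their values were seen. In GENCODE, the 250 bases searched for Txnip, Hbp1 and Mxi1 lie wholly within annotated exons of some transcript, while those for Bcl2l11 and Bbc3 hold no exonic base. A match of letters does not show that a factor binds there.

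Foxp1 and Foxp4 rose, and Foxp3 did not pass. Foxp1, a repressor needed for B cell and heart development in the mouse, had 211, 210 and 204 CPM in the HP libraries, against 90.8, 93.8 and 94.5 CPM in the control libraries (1.16 ± 0.0694, adjusted p = 3.40e-07). Its libraries differed little within a group, and each HP value was more than 2 times the highest control value. Foxp4, known from lung and gut development, had 18.8, 16.3 and 17.7 CPM in the HP libraries, against 10.8, 11.6 and 12.9 CPM in the control libraries (0.59 ± 0.112, adjusted p = 8.43e-04). The log2 ratio of Foxp1 to Foxp4 was 3.57 ± 0.103 in HP libraries and 2.99 ± 0.102 in control libraries (exact permutation p = 0.1). Foxp1 spans chromosome 6 from 98925338 to 99522721. Foxp2 had 1 read in each group.

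Foxp3, the factor that defines regulatory T cells, was listed at 11.6, 10.6 and 13.7 CPM in the HP libraries, against 12.7, 12.8 and 14.0 CPM in the control libraries (-0.14 ± 0.123, adjusted p = 0.319). The groups overlapped, and the change passed under plain library totals (-0.36, adjusted p = 0.0290). The T cell genes that go with it were far lower: Cd3e reached at most 0.486 CPM in HP libraries and 0.66 CPM in control libraries, Il2ra at most 0.327 CPM in HP libraries and 0.16 CPM in control libraries, and Ctla4 was at 0 in 1 HP and in all 3 control libraries. The 9 T and NK cell markers listed summed to 2.80 to 4.17 CPM in HP libraries and 4.89 to 6.89 CPM in control libraries. In GENCODE, 12.89% of the exonic bases of Foxp3 overlap exons of Ccdc22 and 5.81% those of Ppp1r3f, both on the opposite strand, and 18.64% those of Flicr, which the files do not list. Ccdc22 stood at 42.8 to 51.3 CPM in HP libraries and 50 to 51.1 CPM in control libraries. Whether the authors' counting used strand is not given in the sources used here, so reads in the stretch that Foxp3 and Ccdc22 share cannot be told apart, and the part of Ccdc22 in the Foxp3 values was not tested.

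Foxj3 rose and its closest relative Foxj2 did not pass. Foxj3, an activator studied in mouse muscle and male germ cells, had 228, 204 and 170 CPM in the HP libraries, against 74.0, 70.4 and 73.6 CPM in the control libraries (1.47 ± 0.105, adjusted p = 1.04e-06). HP replicate 3 was the lowest of the HP libraries and still above every control library. Foxj2 had 45.1, 42.2 and 39.1 CPM in the HP libraries, against 44.2, 41.6 and 47.3 CPM in the control libraries (-0.07 ± 0.0907, adjusted p = 0.494). It passed as lower under plain library totals (-0.29, adjusted p = 0.0142). The log2 ratio of Foxj2 to Foxj3 was -2.34, -2.28 and -2.12 in the HP libraries, against -0.74, -0.76 and -0.64 in the control libraries, a difference of -1.53 (exact permutation p = 0.1). Foxj3 spans chromosome 4 from 119537004 to 119629119. Foxj1, the regulator of motile cilia, was below the level for testing, with 13 reads over the HP libraries and 35 over the control libraries (ratio of depth-scaled reads 0.386, counting interval 0.187 to 0.747).

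Of the FOXK and FOXN genes, Foxk1, Foxk2 and Foxn2 rose and Foxn3 did not pass. Foxk1, which with Foxk2 is tied to glycolysis and to the restraint of autophagy, had 104, 88.4 and 68.6 CPM in the HP libraries, against 60.2, 52.4 and 52.7 CPM in the control libraries (0.66 ± 0.134, adjusted p = 0.00127). Foxk2 had 117, 105 and 86.4 CPM in the HP libraries, against 85.0, 77.2 and 84.5 CPM in the control libraries (0.32 ± 0.108, adjusted p = 0.0208). The lowest HP value of Foxk2 was only just above its highest control value, and its call was lost under upper-quartile factors (adjusted p = 0.0808), under plain library totals (0.362) and without HP replicate 1 (0.0808), HP replicate 2 (0.0629) or control replicate 2 (0.0805). The log2 ratio of Foxk1 to Foxk2 was -0.25 ± 0.0796 in HP libraries and -0.58 ± 0.0928 in control libraries (exact permutation p = 0.1).

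Of 9 glycolysis genes tied to the FOXK factors, 5 rose and 3 fell (median 0.22), where 33.7% of all tested genes rose and 35.1% fell. Hk2, hexokinase 2, the first step of glycolysis, had 194 ± 21.8 CPM in HP libraries and 25.1 ± 1.95 CPM in control libraries (2.95 ± 0.107, adjusted p = 3.74e-08). Pkm, pyruvate kinase, and Pfkp, a phosphofructokinase, rose by less (0.65 ± 0.0719 and 0.57 ± 0.0886). Pfkm, another phosphofructokinase, fell (-1.13 ± 0.176).

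Foxn2 had 80.3, 81.8 and 69.4 CPM in the HP libraries, against 49.9, 50.7 and 56.5 CPM in the control libraries (0.56 ± 0.0919, adjusted p = 2.88e-04). Foxn3, known as a checkpoint suppressor, had 23.8, 22.1 and 17.0 CPM in the HP libraries, against 29.0, 22.2 and 25.8 CPM in the control libraries (-0.29 ± 0.141, adjusted p = 0.0941). Its groups overlapped, and it passed as lower under upper-quartile factors (adjusted p = 0.0205), under plain library totals (0.00733), without control replicate 2 (0.0469) and without HP replicate 1 (0.0474). The log2 ratio of Foxn2 to Foxn3 was 1.89 ± 0.135 in HP libraries and 1.03 ± 0.221 in control libraries (exact permutation p = 0.1), and the 2 groups did not overlap. Foxn1, of the thymus, had no read in HP libraries and 2 in control libraries, and Foxn4, of the retina, had none in any.

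Foxm1, which drives genes of mitosis in dividing cells, had the largest log2 change of the tested members. It had 21.3, 16.5 and 16.0 CPM in the HP libraries, against 3.69, 3.84 and 3.57 CPM in the control libraries (2.28 ± 0.149, adjusted p = 5.84e-07). The deposited counts behind these values were 341.5, 271.5 and 196 in the HP libraries and 73.5, 72 and 54 in the control libraries. The call was made in all 15 alternative fits of the whole table. Exons of Gm44596 and Tex52, not listed in the files, cover 1.69% and 2.5% of its exonic bases. Foxm1 spans chromosome 6 from 128362967 to 128376146.

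The mitotic genes tied to FOXM1 went both ways at low levels: of 23, 18 were tested, 5 rose and 8 fell (median -0.25). Over all tested genes, 33.7% rose and 35.1% fell. The summed level of the mitotic genes was 48.5 to 55.9 CPM in HP libraries and 58.3 to 59.8 CPM in control libraries. Cdc25b, a phosphatase that activates the mitotic kinase CDK1 and a known FOXM1 target, had 0.976 ± 0.103 CPM in HP libraries and 7.72 ± 0.798 CPM in control libraries (-2.97 ± 0.189, adjusted p = 4.95e-07). Bub1b, of the spindle checkpoint, fell too (-1.68 ± 0.164), to 2.29 ± 0.295 CPM in HP libraries, against 7.29 ± 0.600 CPM in control libraries. Aurka, a kinase of the spindle poles, had 5.59 ± 0.50 CPM in HP libraries and 2.32 ± 0.550 CPM in control libraries (1.28 ± 0.193). Cks1b, a subunit of cyclin-dependent kinases, rose by 0.82 ± 0.126. The count of falls was 4 to 8 when 1 library was left out, at 4 without control replicate 2 and 5 without HP replicate 1.

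Among the other tested factors, all at low levels, Foxc1, Foxd2 and Foxq1 rose, Foxs1 fell and Foxf1 did not pass. Foxc1, a factor of vessel and eye development, had 2.49, 2.37 and 3.85 CPM in the HP libraries, against 1.20, 1.71 and 1.78 CPM in the control libraries (0.88 ± 0.260, adjusted p = 0.0115, and 0.0583 without control replicate 1). Foxf1, of lung vessels and gut mesenchyme, had 2.49, 3.40 and 4.17 CPM in the HP libraries, against 2.75, 3.30 and 3.30 CPM in the control libraries (0.09 ± 0.212, adjusted p = 0.711). The 3 HP values of Foxc1 lay above its control values, while those of Foxf1 straddled them. The sign of the Foxf1 change turned under upper-quartile factors, under plain library totals and without HP replicate 3. Foxc2, the factor of lymphatic valves, was below the level for testing, with 7 reads over the HP libraries and 14 over the control libraries (ratio of depth-scaled reads 0.519, counting interval 0.177 to 1.37).

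Foxq1, known from hair and epithelia, had deposited counts of 28, 28 and 31 in the HP libraries, against 10, 18 and 5 in the control libraries, or 1.99 ± 0.471 CPM in HP libraries and 0.596 ± 0.326 CPM in control libraries (1.67 ± 0.356, adjusted p = 0.00169). In GENCODE, 66.07% of its exonic bases overlap exons of a gene on the opposite strand, A530084C06Rik, which the files do not list, so its reads are uncertain. Foxs1, described in pericytes and sensory neurons of the mouse, had counts of 8, 18 and 5 in the HP libraries, against 32, 24 and 19 in the control libraries (-1.0 ± 0.355, adjusted p = 0.0271). Its call was lost with DESeq2 (adjusted p = 0.0544), without HP replicate 1 (0.102), without HP replicate 3 (0.0534) and without control replicate 1 (0.0975). Foxq1 reached the level of the low-count filter in 3 HP libraries and 1 control library, and Foxs1 in 1 HP library and 3 control libraries. Of 9 tested markers of stellate and mural cells, Des, Acta2 and Ngfr fell (-1.24, -1.16 and -1.41), Dcn rose (0.35) and 5 did not pass, among them the pericyte markers Pdgfrb (0.01) and Rgs5 (0.22). The list summed to 162 to 181 CPM in HP libraries and 146 to 157 CPM in control libraries, of which Dcn made up 132 ± 4.76 CPM in HP libraries and 104 ± 3.85 CPM in control libraries. Their part in the Foxs1 values was not tested.

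Foxd2, of kidney mesenchyme, had 4.11, 2.61 and 2.86 CPM in the HP libraries, against 1.40, 2.03 and 1.52 CPM in the control libraries (0.96 ± 0.247, adjusted p = 0.00535). The transcript Foxd2os, which starts beside it on the other strand, went the other way, with 1.68, 1.40 and 1.47 CPM in the HP libraries, against 2.60, 2.77 and 2.11 CPM in the control libraries (-0.72 ± 0.213, adjusted p = 0.0113). Neither pair of groups overlapped. On chromosome 4 Foxd2 runs from 114906282 to 114908873 on the minus strand and Foxd2os from 114909257 to 114921967 on the plus strand, with no shared exonic base.

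Of 18 endothelial genes tied to FOXC and FOXF factors, 17 were tested, 5 rose and 8 fell (median -0.20). The shares over all tested genes were 33.7% and 35.1%. Itgb3, an integrin subunit, had 29.2 ± 0.629 CPM in HP libraries and 89.5 ± 3.27 CPM in control libraries (-1.62 ± 0.0781, adjusted p = 1.10e-07). Notch4, an endothelial Notch receptor, Kdr, a VEGF receptor, and Gja4, a connexin of arteries, fell as well (-1.18 ± 0.113, -0.73 ± 0.0722 and -1.61 ± 0.179). Kdr is also among the 12 LSEC markers, 7 of which fell, and the part of LSEC content in this list was not tested. The count of rises was 3 without control replicate 2 or 3 or HP replicate 1 or 2, 8 without HP replicate 3, 3 under upper-quartile factors and 2 under plain library totals.

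The remaining members were at the edge of detection. Foxa2, a pioneer factor of hepatocytes and other gut-derived epithelia, had 10, 5 and 6 counts in the HP libraries and none in the 3 control libraries, which makes it at least 7.27-fold higher after scaling to depth, against a floor of 3 counts over the control group. Foxa1, of the same family, had 13 reads over the HP libraries and 3 over the control libraries (ratio 4.5, counting interval 1.24 to 24.6), and Foxa3 had 1 read in each group. Foxd1 had 7 reads over the HP libraries and none over the control libraries, at least 2.42-fold higher. Foxh1, a partner of SMAD proteins in Nodal signalling, had 12 reads over the HP libraries, 8 of them in HP replicate 3, and 2 over the control libraries. When the filter on low counts was dropped, Foxa1, Foxa2, Foxd1 and Foxo6 passed as higher (adjusted p = 0.0448, 4.94e-04, 0.0273 and 0.0247). This took the number of members called higher to 14 of 33 tested, where 4541 of 17805 genes were called higher in all. Intervals cover counting error only. The floors bound the control count alone and take the HP count as exact, so the ratio may lie below them.

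The summed levels of markers of epithelial liver cells stood higher in the HP libraries beside Foxa1 and Foxa2, while single markers went both ways. The 12 hepatocyte markers summed to 16.3 to 20.6 CPM in HP libraries and 9.90 to 12.9 CPM in control libraries, with Alb and Apoa1 called higher among 4 tested and Tat at 0. Apoa2 (-0.27) and Cyp2e1 (-0.03), the others tested, did not pass. Alb alone made up 12.1 ± 1.54 CPM in HP libraries and 6.40 ± 1.55 CPM in control libraries. The 6 cholangiocyte markers summed to 10 to 12.9 CPM in HP libraries and 5.70 to 6.01 CPM in control libraries, with 3 of 4 tested called higher. Spp1 made up 6.95 ± 0.639 CPM in HP libraries and 3.36 ± 0.256 CPM in control libraries. Krt19 and Krt7, not tested, had means of 0.614 and 0.116 CPM in HP libraries and 0.446 and 0.188 CPM in control libraries. Among the untested hepatocyte markers, Ttr, Serpina1a, Fgb and Cyp3a11 had every HP value above every control value. Their means were 0.715, 0.559, 0.388 and 0.383 CPM in HP libraries and 0.307, 0.321, 0.143 and 0.238 CPM in control libraries. The groups of the other untested hepatocyte markers overlapped. Hnf4a, a defining gene of hepatocytes, was below the level for testing in both groups (mean 0.0950 CPM in HP libraries, 0.131 CPM in control libraries). The part of such cells in the values of Foxa1 and Foxa2 was not tested. Foxe1, Foxi1, Foxl1 and Foxd4 had at most 9 reads in either group, and the members with none included Foxb1, Foxb2, Foxd3, Foxe3, Foxf2, Foxi2, Foxi3, Foxl2, Foxl2os, Foxn4, Foxr1 and Foxr2. In single libraries a count of 0 allows a level of up to 0.161 to 0.232 CPM.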

How the data were processed

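RNA of the 6 samples was sequenced from a stranded mRNA kit in reads of 101 bases, per the labels' protocols. The authors deposited expected counts for each gene symbol, and 18.22% to 21.67% of a library's detected genes held a fraction. TopHat2 2.2.1, Cufflinks 2.2.1 and mm10 are listed per the submitters' processing notes. Counting tool, strand setting and annotation were not given in the sources used here.

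After rounding, filterByExpr (minimum count 10, total 15) kept 12892 genes with 99.94% of counts, and TMM factors were 0.9094 to 0.9457 for HP and 1.0736 to 1.0828 for control. The groups were set against each other with the quasi-likelihood F-test of edgeR 4.0.16 in R 4.3.3. It was two-sided, had no covariate, and its p-values were adjusted by Benjamini-Hochberg over the whole table, with 0.05 as the limit for a call. A standard error is the log2 change over the square root of F. The fit was tested on simulated data. Libraries of a group differed by more than sampling noise (chi-square per degree of freedom 2.65 or more).

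The members and gene lists were chosen with earlier results of these data known. Each tested member is named, and from each list up to 4 called genes with the smallest p; a few genes and sequences are not reported here. Ratios within a library had 0.5 added to each count. Alternatives were DESeq2 1.42.0, limma-voom (limma 3.58.1), other scalings and filters, unrounded counts, the sample number as a block, and leaving out each sample. Positions and lengths came from GENCODE M21 (GRCm38), and start-site regions from RefSeq. Counting intervals are exact binomial at 95% (scipy 1.17.1).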

Additional observations from a re-analysis of the deposited data

How the results depend on the processing

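The count of forkhead members called higher (10) was 7 to 14 and that called lower (4) was 2 to 7 over all alternatives. The 14 rises came without the low-count filter, where 33 members are tested. Falls numbered 7 under plain library totals and 2 with a mean of at least 5 CPM, where only 13 members are tested. Leaving out 1 library gave 9 to 10 rises and 3 to 5 falls. Among FOXO regulators (11 rises, 8 falls), falls numbered 11 under upper-quartile factors and 12 under plain library totals, with 10 rises in each, 5 with DESeq2, 4 with the sample number as a block and 3 to 7 with 1 library left out. Among mitotic genes, 1 rise and 1 fall were called of 3 genes tested with a mean of at least 5 CPM, and falls numbered 4 to 8 with 1 library left out. Among the endothelial genes, rises numbered 3 under upper-quartile factors, 2 under plain library totals and 3 to 8 with 1 library left out. The reversed values, none past the threshold, were -0.02 for Foxf1 and -0.06 for Foxo1 under upper-quartile factors, -0.12 and -0.16 under plain library totals, and -0.07 for Foxf1 without HP replicate 3, within -0.07 to 0.27 over the libraries left out. The cause was not tested. The 6 within-library ratios kept their sign under every alternative run for them. Deviations of same-numbered samples correlated at 0.170, -0.301 and -0.184, and not every sample correlated best with its own number. With 3 libraries in a group this cannot decide whether the numbers pair the samples. The replicate block gave 10 member rises, 4 member falls and 8384 called genes in all, against 8871. Depth limits the 14 members with too few counts for testing.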
